A study of Mus musculus with 10 samples.

Results

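The genes examined here belong to SNARE, synaptic vesicle and endocytosis families, measured in the hippocampus of the Dp3Yah mouse, a partial trisomy model of Down syndrome. Many act at the nerve terminal, while others serve internal membranes or other cell types. Members were chosen by gene symbol alone: the SNAP-25 family, syntaxins, VAMPs, synaptotagmins, complexins, synapsins, SV2 proteins, Munc18-type syntaxin-binding proteins, NSF, RIM and Munc13 proteins, synaptojanins, intersectins, dynamins, amphiphysin, synaptophysin and Snap91. Of 19939 genes with a probe set of their own on the array, 73 were members. The rule itself used no level or difference, but it was chosen with earlier results of these data known. Vamp2 lay only on a probe set shared with another gene and was left out.

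Both groups were males of 16 weeks, with 5 Dp3Yah mutants and 5 littermate controls, and each array carried RNA from the right and left hippocampus of 1 mouse. Dp3Yah mice carry 3 copies, in place of 2, of the mouse chromosome 16 segment that starts at Hspa13 and ends before the whole of App, a stretch homologous to part of human chromosome 21. The labels give the genetic background of both groups as C57BL/6N, while the study's methods name C57BL/6J. The duplication is present in every cell, and a whole hippocampus pools neurons, glia and vessels, so fewer cells of a type and less RNA per cell cannot be told apart.

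Neurotransmitter release rests on SNARE proteins: a VAMP on the vesicle zips together with a syntaxin and SNAP-25 on the plasma membrane, and the assembled bundle pulls both membranes into fusion. Complexins clamp and assist this bundle, synaptotagmins make it respond to calcium, and RIM and Munc13 proteins dock and prime vesicles at the active zone. After fusion, dynamin, amphiphysin, intersectin and synaptojanin retrieve the membrane by endocytosis. Synaptojanin 1 and intersectin 1 are known as genes of human chromosome 21 and are widely studied in Down syndrome.

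The labels were checked against genes of the duplicated segment. Hspa13, at the proximal end of the segment, read 8.88 to 9.11 on the log2 scale in Dp3Yah mice and 8.29 to 8.62 in controls. Its difference was 0.60, where a 1.5-fold change is 0.58. Mrpl39 and Gabpa read lower differences, 0.48 and 0.44 (limma adjusted p = 0.003 and 0.078). Markers of the hippocampus were present in both groups, with all 8 pyramidal cell markers and 5 of 6 dentate granule cell markers above the median level of all genes. The array of Dp3Yah replicate 2 stood apart from the rest (on the first principal component, which held 26.2% of the variance). Several of the members described below whose difference it moves are therefore given with and without it. Choroid plexus RNA varied widely among mice of both groups, the mean of 7 markers running from 6.37 to 8.42 in Dp3Yah mice and from 6.28 to 8.50 in controls.

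No SNARE, vesicle or endocytosis gene differed between the genotypes after correction over all genes. The change was higher in Dp3Yah for 33 members and lower for 40, from -0.34 for Sv2c to 0.20 for Stxbp3, with a median of -0.00 on the log2 scale. The median over all genes was also -0.00. With limma, 0 of 73 members had an adjusted p under 0.05, against 3 of all 19939 genes (0.015%). The lowest adjusted p of a member was 0.922. At an unadjusted p under 0.05 limma put 6 members (8.22%), beside 5.08% of all genes. Of these, 3 were higher (Stxbp3, Vamp7 and Stx12), beside 2.49% of all genes, and 3 were lower (Sv2c, Cplx2 and Synj2), beside 2.59%. A rank test of fold changes also put 6 members past its threshold, beside 4.59% of all genes. Of these, 3 were higher (Stxbp3, Vamp7 and Syt10), beside 2.54%, and 3 were lower (Sv2c, Syn3 and Rims3), beside 2.05%. The rank test scales each gene's mean rank by the spread over all genes, so a share near that size passes whatever the data. The members' shares were a little above those backgrounds, and are not read as a result about the members.

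**Figure D1:**
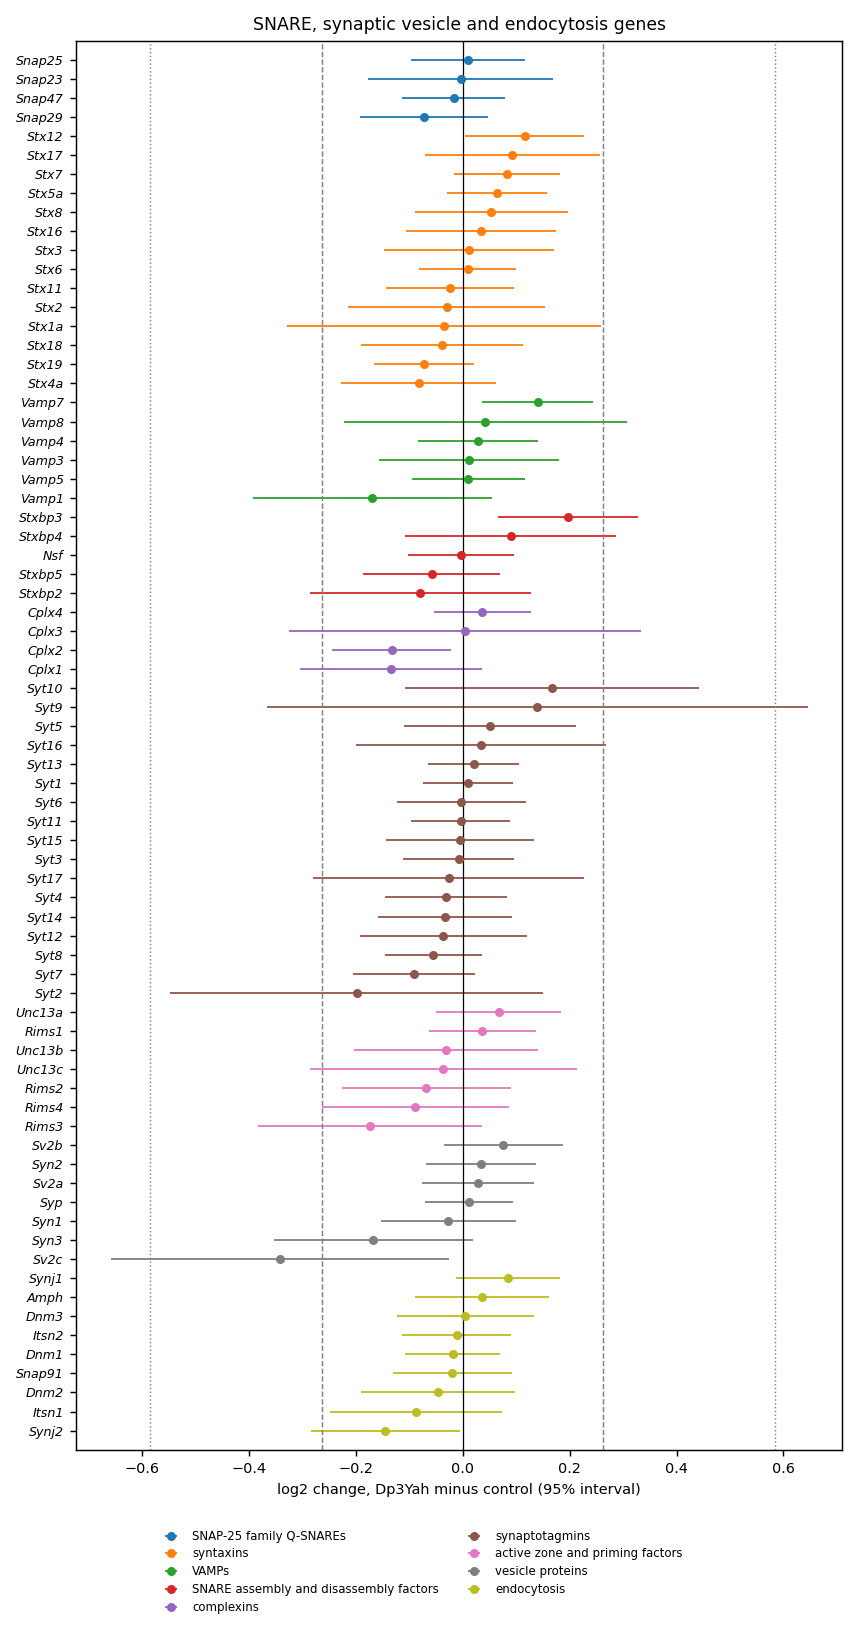
Change of each of the 73 genes (log2 scale, Dp3Yah minus control, 5 mice per group), grouped and coloured by role. Points are limma estimates, lines are 95% intervals, dashed lines mark 1.2-fold and dotted lines 1.5-fold. The points lie between -0.34 (Sv2c) and 0.20 (Stxbp3), and only the intervals of Syt9 and Sv2c reach past 1.5-fold.

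The intervals bound, gene by gene, how large a missed difference could be as read on the array, which need not equal the difference in RNA. They are not adjusted for reading many members at once, so they are no joint bound. For 54 members (74.0%) the 95% interval lay wholly inside a 1.2-fold change in either direction, beside 88.3% of all genes. For 71 members (97.3%) it lay inside 1.5-fold, the exceptions being Syt9 and Sv2c. By role, the interval lay inside 1.2-fold for all 4 SNAP-25 family members, 13 of 14 syntaxins, 8 of 9 endocytosis genes, 12 of 17 synaptotagmins, 5 of 7 vesicle proteins and 4 of 6 VAMPs. It did so for 4 of 7 active zone factors, 2 of 4 complexins and 2 of 5 SNARE assembly factors. Of the members, 65 lay above the median level of all genes, among them 11 syntaxins, 14 synaptotagmins and 2 complexins. Below that level, as for Cplx4 (mean 4.45) and Stx19 (mean 4.51), a narrow interval need not mean that a change was measurable. Genes are described by role in the following, and the 40 members not described there differed by between -0.09 and 0.09, with no unadjusted p under 0.05. The spread between mice of a group had a median SD of 0.098 over the members and of 0.087 over all genes.

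Among the SNAP-25 family, the membrane Q-SNAREs that contribute a pair of helices to the bundle, 1 member was higher and 3 were lower, with a median of -0.01. Snap25, the neuronal form and the target of several botulinum toxins, read 13.06, 13.20, 13.28, 13.17 and 13.21 in Dp3Yah replicates 1 to 5 and 13.27, 13.17, 13.20, 13.15 and 13.09 in control replicates 1 to 5. The mice of both groups were interleaved, and the highest and the lowest of the 10 were both Dp3Yah. The difference was 0.01 (SE 0.049, 95% interval -0.10 to 0.12, limma adjusted p = 0.991), which in percent runs from -6.51% to 8.39%. Snap23, the broadly expressed form, read 8.54, 8.37, 8.35, 8.42 and 8.70 in Dp3Yah mice and 8.56, 8.29, 8.43, 8.45 and 8.68 in controls. Its groups overlapped over nearly their whole range, with a difference of -0.00 (95% interval -0.18 to 0.17, limma adjusted p = 0.997). Snap29, which serves fusion of autophagosomes and other internal membranes, was the member of this family with the smallest unadjusted p, at -0.07 (95% interval -0.19 to 0.05), and at -0.02 without Dp3Yah replicate 5.

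The syntaxins, which anchor SNARE bundles on the plasma membrane or on organelles, numbered 14, with 8 higher and 6 lower, a range of -0.08 to 0.12 and a median of 0.01. Stx1a, a plasma membrane syntaxin of synaptic release, varied strongly between mice. It read 8.23, 8.19, 8.85, 8.59 and 8.55 in Dp3Yah mice and 8.36, 8.92, 8.42, 8.57 and 8.30 in controls. Each group held low mice and 1 high mouse, and the difference of -0.04 had a 95% interval of -0.33 to 0.26 (limma adjusted p = 0.987). Without Dp3Yah replicate 2 the difference was 0.04.

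Stx12 (syntaxin 13), a SNARE of recycling endosomes, read 8.14, 8.16, 8.24, 8.11 and 8.11 in Dp3Yah mice and 8.08, 8.12, 8.08, 8.03 and 7.87 in controls. Of the Dp3Yah mice 3 lay above every control, and the lowest control lay well below the other controls. Its difference was 0.12 (SE 0.051, unadjusted p = 0.043 and adjusted p = 0.922 by limma), and 0.07 without control replicate 5, that lowest mouse. Stx7, a SNARE of late endosomes, was higher by 0.08 (95% interval -0.02 to 0.18), with 3 of 5 Dp3Yah mice above every control. Stx19, a member without a transmembrane anchor, read 4.40 to 4.61 in Dp3Yah mice and 4.54 to 4.56 in controls, a difference of -0.07.

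Of 6 VAMPs, the vesicle partner of the bundle, 5 were higher and 1 was lower, with a median of 0.02. Vamp7, a toxin-insensitive VAMP of late endosomes and of slow secretory routes, read 8.77, 8.97, 8.95, 8.90 and 8.92 in Dp3Yah mice and 8.72, 8.83, 8.71, 8.72 and 8.82 in controls. Dp3Yah replicate 1 lay within the controls, and the other 4 Dp3Yah mice lay above all of them. The difference was 0.14, or 10.2% (SE 0.048, unadjusted p = 0.012 and adjusted p = 0.922 by limma). Vamp1, the VAMP of fast motor and sensory terminals and of some interneurons, was lower by 0.17 (95% interval -0.39 to 0.05). Its value in Dp3Yah replicate 2, 9.71, was the lowest of the 10 mice, and without that mouse the difference was -0.09.

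The factors that assemble or take apart SNARE bundles numbered 5, with 2 higher, 3 lower and a median of -0.00. Stxbp3 (Munc18c), which binds syntaxin 4 and is best known from insulin-dependent transport of glucose carriers, had the smallest unadjusted p of all members. It read 7.58, 7.61, 7.41, 7.58 and 7.71 in Dp3Yah mice and 7.44, 7.27, 7.30, 7.40 and 7.50 in controls. In the Dp3Yah group 4 mice were above every control, and replicate 3 lay within the control range. The difference was 0.20, or 14.7% (95% interval 4.72% to 25.6%, SE 0.060, unadjusted p = 0.006 and adjusted p = 0.922 by limma). Another probe set, shared between Stxbp3 and Stxbp3-ps, was not used, and its values are not given here. Nsf, the ATPase that pulls spent bundles apart, read 11.59 to 11.74 in Dp3Yah mice and 11.61 to 11.79 in controls, a difference of -0.00 (95% interval -0.10 to 0.09).

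The promoter of Stxbp3 is shown because it was 1 of only 2 member promoters with a full cyclic AMP response element (letters TGACGTCA, its own reverse complement). The windows below run over the 250 bases before the start used in the RefSeq promoter sequences of build GRCm38.p6, on the strand of the gene. For Itsn1 and Cplx2 that start lies inside the outermost annotated bounds of the gene, so part of the Itsn1 window and the whole Cplx2 window fall within those bounds. Capitals mark the response element and GC boxes (letters GGGCGG on either strand, so CCGCCC where the box lies on the opposite strand). The element of Stxbp3 (chr3:108840503-108840752, minus strand) began 108 bases before the start, and the window also held 2 GC boxes.
Stxbp3: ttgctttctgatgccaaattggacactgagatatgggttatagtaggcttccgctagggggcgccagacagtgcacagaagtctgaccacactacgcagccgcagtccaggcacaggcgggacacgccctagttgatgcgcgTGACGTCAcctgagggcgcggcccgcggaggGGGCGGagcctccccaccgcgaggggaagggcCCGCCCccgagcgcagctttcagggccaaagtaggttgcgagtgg
Syn1, the other member with the element (159 bases before the start, chrX:20920919-20921168, minus strand), is a classical neuronal promoter and held no GC box as spelt here.
Syn1: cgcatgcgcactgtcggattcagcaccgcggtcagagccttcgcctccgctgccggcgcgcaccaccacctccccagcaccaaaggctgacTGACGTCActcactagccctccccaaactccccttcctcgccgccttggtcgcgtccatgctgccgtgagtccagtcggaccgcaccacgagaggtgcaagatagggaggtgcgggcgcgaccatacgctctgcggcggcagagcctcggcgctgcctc
Cplx2 (chr13:54302306-54302555, plus strand), whose levels are given next, held neither motif, and Itsn1 (chr16:91729121-91729370, plus strand) held 5 GC boxes.
Cplx2: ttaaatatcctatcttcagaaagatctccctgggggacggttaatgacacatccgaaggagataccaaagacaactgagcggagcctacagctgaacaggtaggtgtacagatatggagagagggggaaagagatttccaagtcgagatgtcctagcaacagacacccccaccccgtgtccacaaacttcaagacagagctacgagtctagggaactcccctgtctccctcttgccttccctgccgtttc
Itsn1: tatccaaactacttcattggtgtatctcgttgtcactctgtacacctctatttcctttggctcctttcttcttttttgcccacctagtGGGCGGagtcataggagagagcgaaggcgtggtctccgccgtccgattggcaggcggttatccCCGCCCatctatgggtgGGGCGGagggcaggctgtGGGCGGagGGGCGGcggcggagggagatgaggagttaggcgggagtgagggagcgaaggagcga
Windows were matched for 60 of the 73 members, 77 windows in all, with none matched for Snap25, Vamp3, Vamp7, Rims2, Rims4, Cplx4, Syt4, Syt5, Syt7, Syt12, Syt13, Syt17 and Syn3. The response element was in 2.60% of member windows and in 1.55% of all 32851 windows of the same length. GC boxes were in 57.1% of member windows, beside 32.7% of all windows. The core letters bound by GABP, whose alpha subunit Gabpa lies in 3 copies, were searched as CCGGAAGT on both strands and were in 0 of 77 member windows and 2.88% of all windows. These are counts of letters in a window, and binding was not measured.

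Complexins, small proteins that grip the assembled bundle, numbered 4, with 2 higher and 2 lower. Cplx2, a main complexin of excitatory forebrain neurons, was the 1 member (1.37%) whose groups did not overlap, beside 0.913% of all genes (0.522% higher and 0.391% lower). It read 9.74, 9.48, 9.66, 9.74 and 9.66 in Dp3Yah mice and 9.75, 9.75, 9.85, 9.78 and 9.82 in controls. All 5 Dp3Yah mice lay below all 5 controls, although the gap between the groups was smaller than the spread within either. The difference was -0.13, or -8.82% (95% interval -15.6% to -1.48%, SE 0.051, unadjusted p = 0.023 and adjusted p = 0.922 by limma), and -0.09 without Dp3Yah replicate 2. Cplx1, the complexin of inhibitory and fast-firing neurons, read 10.95, 10.56, 11.03, 11.01 and 10.97 in Dp3Yah mice and 10.97 to 11.10 in controls. Its difference of -0.13 was -0.05 once replicate 2 was left out. Cplx3, known from retinal ribbon synapses and deep cortical cells, had 1 control at 6.21 with the other controls at 5.60 to 5.71, and a difference of 0.00 (95% interval -0.33 to 0.33). That difference was 0.14 without Dp3Yah replicate 2, which read 5.21.

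**Figure D2:**
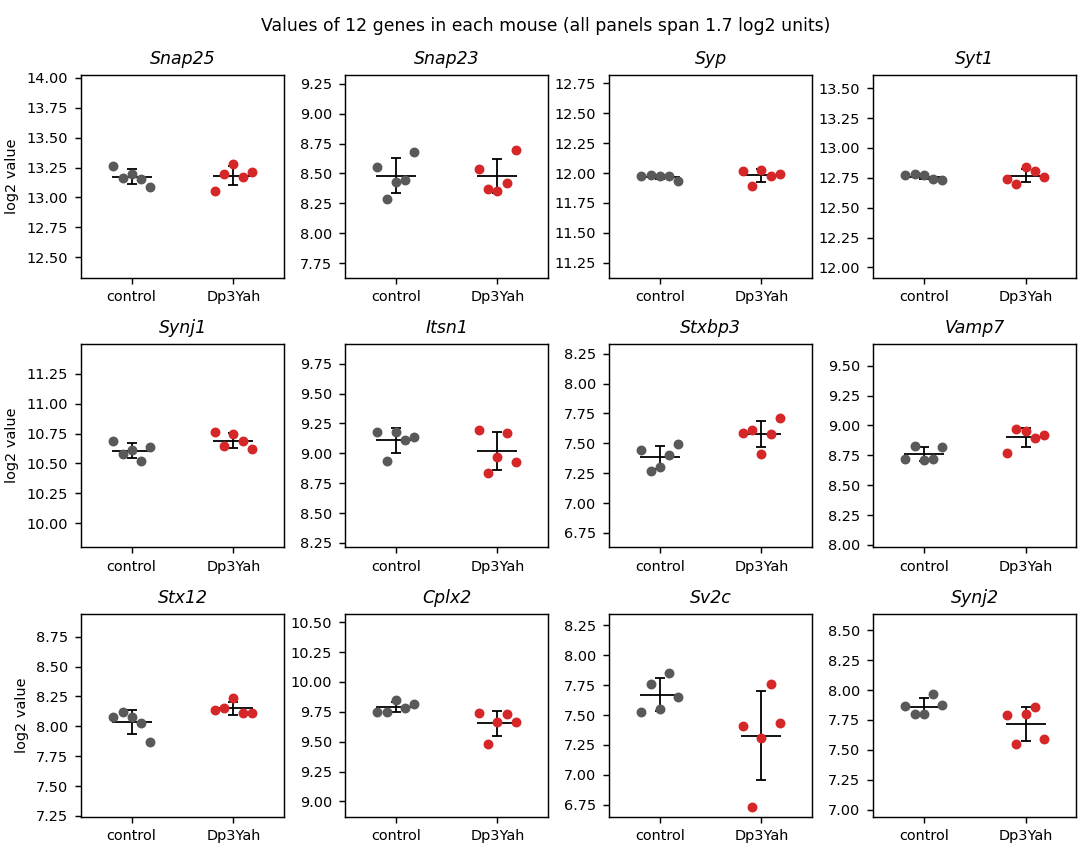
Log2 value of 12 genes in each mouse (points), with the mean and SD of the 5 mice per group. Every panel spans 1.7 log2 units, so distances can be compared between panels while levels cannot. Snap25, Snap23, Syp and Syt1 overlap between control and Dp3Yah, 4 of 5 Dp3Yah mice lie above all controls for Stxbp3 and Vamp7, and all 5 lie below for Cplx2.

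The synaptotagmins, most of which bind calcium or phospholipid through tandem C2 domains, were the largest family, with 17 measured, 6 higher, 11 lower and a median of -0.01. Syt1, the calcium sensor of synchronous release, read 12.74, 12.69, 12.84, 12.81 and 12.76 in Dp3Yah mice and 12.77, 12.79, 12.77, 12.74 and 12.73 in controls. The controls spanned only 12.73 to 12.79, and Dp3Yah mice lay on both sides of them. Its difference of 0.01 had the interval -0.07 to 0.09 (limma adjusted p = 0.989), or -5.05% to 6.69%. Syt7, a slow high-affinity sensor linked to facilitation and asynchronous release, was lower by 0.09 (95% interval -0.21 to 0.02), and the difference was -0.06 without Dp3Yah replicate 2. Syt13, a member that does not bind calcium, was steady, with a difference of 0.02 and an SD between mice of 0.046.

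Syt2, the fast sensor of inhibitory basket cells and of the brainstem, read 7.77, 6.95, 7.80, 8.06 and 7.58 in Dp3Yah mice and 7.66, 8.03, 7.73, 7.85 and 7.89 in controls. Replicate 2 lay far below the other 9 mice, and the difference of -0.20 (95% interval -0.55 to 0.15) was -0.03 without it. Syt10, which serves activity-dependent IGF-1 secretion in the olfactory bulb, went the other way. It read 8.37, 7.84, 8.42, 8.14 and 8.69 in Dp3Yah mice and 7.97 to 8.26 in controls, with 3 Dp3Yah mice above every control and replicate 2 below all of them. Its difference was 0.17 (95% interval -0.11 to 0.44) with all mice, and 0.28 (unadjusted p = 0.014 and adjusted p = 0.800 by limma) without replicate 2, and 0.07 without replicate 5.

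Of 7 active zone and priming factors, 2 were higher and 5 were lower, with a median of -0.04. Rims3, a short RIM that acts on presynaptic calcium channels, read 7.96, 7.72, 8.0, 8.08 and 7.99 in Dp3Yah mice and 7.95, 8.27, 7.83, 8.29 and 8.27 in controls. Of the controls 3 were high and 2 were low, and most Dp3Yah mice lay between them. The difference was -0.17 (95% interval -0.38 to 0.04), and limma gave an unadjusted p of 0.096 where the rank test put the gene past its lower threshold (f = 0.0152). Unc13c (Munc13-3), a priming factor best known from the cerebellum, had 1 low mouse in each group, 7.27 in Dp3Yah replicate 2 and 7.46 in control replicate 1, and a difference of -0.04 (95% interval -0.29 to 0.21). Its sign turned, to 0.07, without Dp3Yah replicate 2.

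The proteins of the vesicle itself numbered 7, with 4 higher, 3 lower and a median of 0.01. Syp (synaptophysin), the standard marker of synaptic vesicles, read 12.01, 11.89, 12.03, 11.97 and 11.99 in Dp3Yah mice and 11.98, 11.98, 11.97, 11.98 and 11.94 in controls. The controls lay close together, with Dp3Yah mice on both sides of them, and the difference was 0.01 (95% interval -0.07 to 0.09, limma adjusted p = 0.985). Syn1 (synapsin I), which tethers vesicles in the reserve pool, was at -0.03 (95% interval -0.15 to 0.10).

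Sv2c and Syn3 were the vesicle proteins with the widest differences. Sv2c, the SV2 form of basal ganglia and of some hippocampal terminals and a receptor of botulinum toxin A, read 7.41, 6.73, 7.31, 7.76 and 7.43 in Dp3Yah mice and 7.53, 7.76, 7.55, 7.86 and 7.65 in controls. Of the Dp3Yah mice 4 lay below every control, and replicate 4 lay among the controls. The difference was -0.34, or -21.1% (95% interval -36.6% to -1.74%, SE 0.146, unadjusted p = 0.036 and adjusted p = 0.922 by limma). Without replicate 2, the lowest mouse, it was -0.19. Syn3 (synapsin III), the synapsin of developing neurons and of adult neurogenesis, read 8.0, 7.69, 7.95, 8.25 and 7.90 in Dp3Yah mice and 8.04, 8.29, 8.09, 8.13 and 8.08 in controls. Again 4 Dp3Yah mice lay below every control and replicate 4 did not, with a difference of -0.17 (95% interval -0.35 to 0.02) that was -0.10 without replicate 2. In the rank test Sv2c (f = 0.0032) and Syn3 (f = 0.0116) were past the lower threshold of 0.025.

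The endocytosis genes numbered 9, with 3 higher, 6 lower and a median of -0.02. Synj1, the phosphoinositide phosphatase that helps vesicles shed the clathrin coat, read 10.76, 10.65, 10.75, 10.68 and 10.62 in Dp3Yah mice and 10.69, 10.58, 10.61, 10.52 and 10.63 in controls. Replicates 1 and 3 of the Dp3Yah group lay above every control and the others lay within them. The difference was 0.08, or 6.06% (95% interval -0.86% to 13.5%, SE 0.045, limma adjusted p = 0.922). Itsn1, a scaffold that gathers dynamin, synaptojanin and actin regulators at endocytic sites, read 9.20, 8.84, 8.97, 9.17 and 8.93 in Dp3Yah mice and 9.18, 8.93, 9.18, 9.11 and 9.13 in controls. The groups overlapped, with the highest and the lowest mouse both Dp3Yah, and the difference was -0.09, or -5.92% (95% interval -15.8% to 5.18%, limma adjusted p = 0.939). The difference of Itsn1 was -0.04 without Dp3Yah replicate 2, the lowest of the 10 mice, and -0.13 without Dp3Yah replicate 1, the highest.

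Both genes are often named with trisomy 21, and neither lies in the segment that Dp3Yah duplicates. On GRCm38.p6 the segment was taken to span Hspa13 through Gabpa, chr16:75755190-84863783. Synj1 (chr16:90936092-91013727) starts 6.07 Mb and Itsn1 (chr16:91729310-91920591) 6.87 Mb beyond its distal end. Snap29 and Stx19 lie 58.3 Mb and 12.9 Mb before its proximal end. These 4 were the members on chromosome 16, and 0 lay inside the segment, so the duplication adds a copy of no member.

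Synj2, the broadly expressed relative of Synj1, read 7.79, 7.54, 7.80, 7.86 and 7.59 in Dp3Yah mice and 7.86, 7.80, 7.80, 7.97 and 7.87 in controls. In this gene 4 Dp3Yah mice lay below every control, some of them narrowly. The difference was -0.15 (SE 0.064, unadjusted p = 0.042 and adjusted p = 0.922 by limma), and -0.10 without replicate 2. Dnm1, the neuronal dynamin that cuts vesicles from the membrane, was at -0.02 (95% interval -0.11 to 0.07). Itsn2 was at -0.01 (95% interval -0.11 to 0.09), and Snap91 (AP180), a clathrin adaptor of synaptic vesicles and no SNARE despite its symbol, was at -0.02 (95% interval -0.13 to 0.09).

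The spread between mice of 1 group varied widely between members. Syp had the smallest SD between mice of a group, 0.041, at percentile 3.97 of all genes, followed by Syt1 with 0.043 at percentile 5.26. At the other end stood Syt9 with 0.457, at percentile 99.7, then Syt2 with 0.312, Cplx3 with 0.294, Sv2c with 0.282 and Stx1a with 0.261. The interval of the change was thus narrow for Syp and for Syt1, from -0.07 to 0.09 for each. A small spread between mice need not mean that a small change in RNA was measurable, which was not tested. For Syt9, a calcium sensor of secretory cells and some limbic neurons, the interval ran from -0.37 to 0.65.

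**Figure D3:**
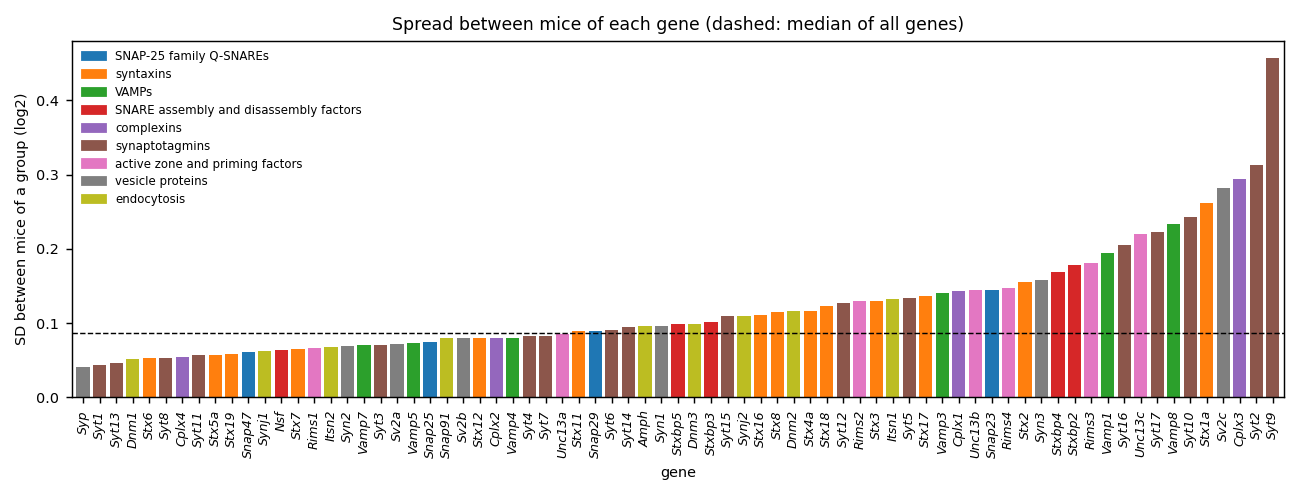
SD between mice of a group (log2 scale, pooled over both genotypes, 5 mice per group) for each of the 73 genes in rising order, coloured by role. The dashed line is the median of all genes, 0.087. Syp (0.041) and Syt1 (0.043) stand at the low end and Syt9 (0.457) at the high end.

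Single mice stood at the extreme for many members at once. Dp3Yah replicate 2 was the lowest of the 10 mice for 31 members (42.5%), beside 23.8% of all genes, and Dp3Yah replicate 3 was the highest for 19 members (26.0%), beside 13.2% of all genes. The mean of 8 pan-neuronal markers was 10.37 in replicate 2 and 10.57 in replicate 3, the lowest and the highest of the Dp3Yah mice, while controls ran from 10.47 to 10.58. The part of neuronal content in these values was not tested. Without replicate 2, limma put 4 members at an unadjusted p under 0.05 (Cplx2, Stxbp3, Syt10 and Vamp7), beside 6.19% of all genes, and 0 members passed correction.

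**Figure D4:**
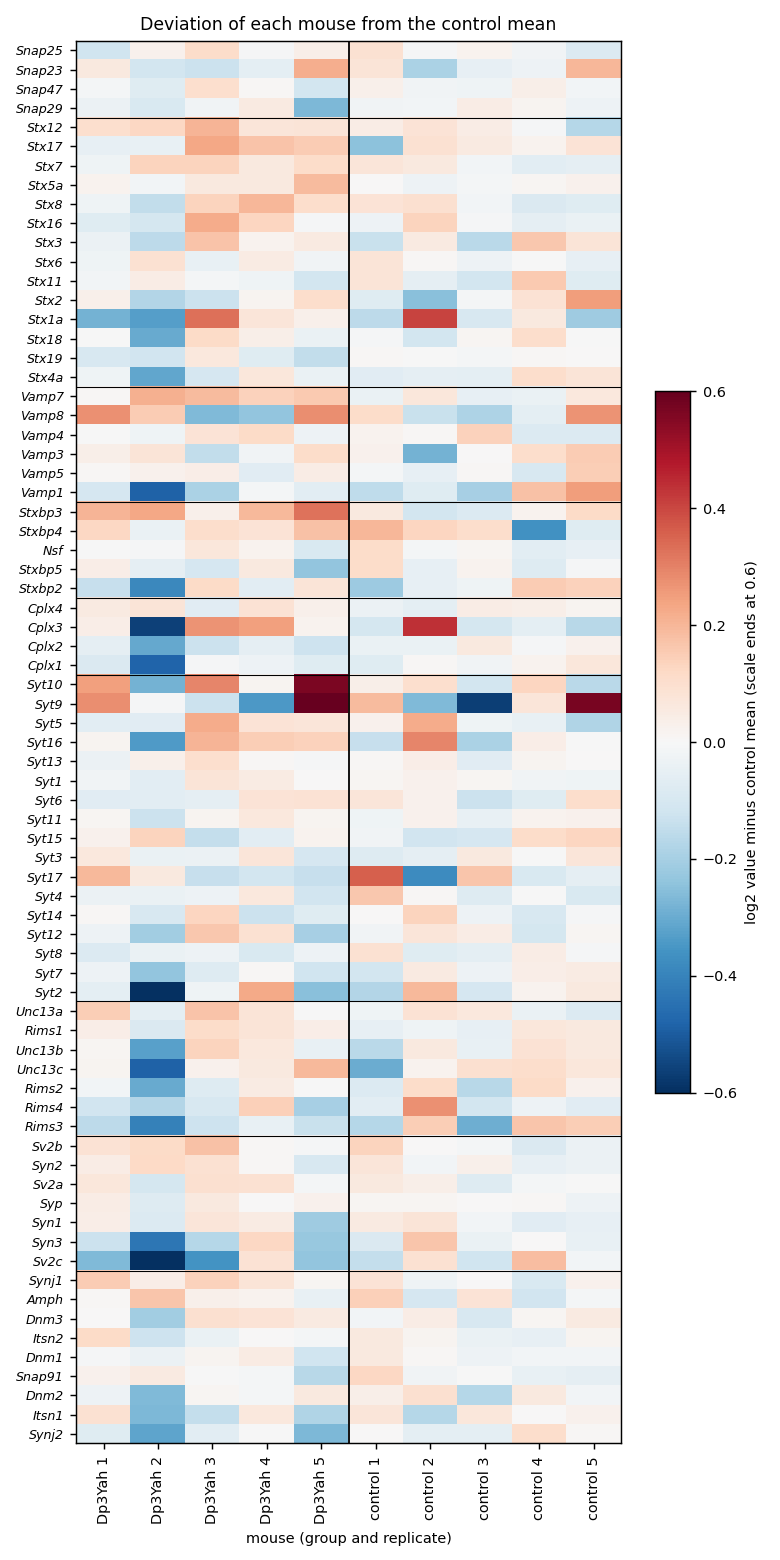
Deviation of each mouse from the control mean (log2 scale, colour, ending at 0.6) for the 73 genes, in the same order by role as the plot of changes. The vertical line separates 5 Dp3Yah from 5 control mice. The column of Dp3Yah replicate 2 holds most of the dark blue cells (it was the lowest of 10 mice for 31 genes), and Dp3Yah replicate 3 was the highest for 19.

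Markers of other cell types were read beside these genes. All 6 microglial markers were higher in Dp3Yah, with a median of 0.09, 2 of them at an unadjusted p under 0.05 and 0 called by limma. Their mean ran from 7.663 to 7.843 in Dp3Yah mice and from 7.561 to 7.656 in controls. Every Dp3Yah mouse thus lay above every control on that mean, by a narrow gap. Of 6 dentate granule cell markers 5 were lower, with a median of -0.20, 3 at an unadjusted p under 0.05 and 0 called, and a mean of 7.22 to 7.53 in Dp3Yah mice and 7.39 to 7.67 in controls. Their part in the higher levels of Stxbp3, Vamp7 and Stx12, or in the lower levels of Cplx2, Sv2c and Synj2, was not tested. All 6 astrocyte markers were higher too, with a median of 0.04, while 4 of 9 interneuron markers were higher and 5 were lower.

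Choroid plexus content was read beside the members in both genotypes. Ttr (transthyretin), the most abundant transcript of that epithelium, read 12.68, 13.04, 9.62, 9.37 and 13.40 in Dp3Yah mice and 13.25, 8.99, 10.17, 10.29 and 13.33 in controls, which left 5 mice high and 5 low. Vamp8, a SNARE of secretory granules in epithelia and blood cells, read 7.62, 7.50, 7.08, 7.11 and 7.63 in Dp3Yah mice and 7.46, 7.22, 7.16, 7.29 and 7.62 in controls. The 5 mice with high Ttr were the 5 with the highest Vamp8. Syt9 read 7.09, 6.81, 6.68, 6.47 and 7.71 in Dp3Yah mice and 7.00, 6.55, 6.24, 6.88 and 7.38 in controls, with 4 of the 5 high-Ttr mice above all others. Snap23 also had 4 of the 5 high-Ttr mice above all others, while Dp3Yah replicate 2, at 8.37, lay among the low-Ttr mice. Since the mice fell into separate clusters, no correlation is given. With the choroid plexus mean as a covariate, the same 6 members had an unadjusted p under 0.05, beside 5.30% of all genes. In that fit Stxbp3 stood at 0.18 (unadjusted p = 0.002), and the lowest adjusted p of a member by limma was 0.839.

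**Figure D5:**
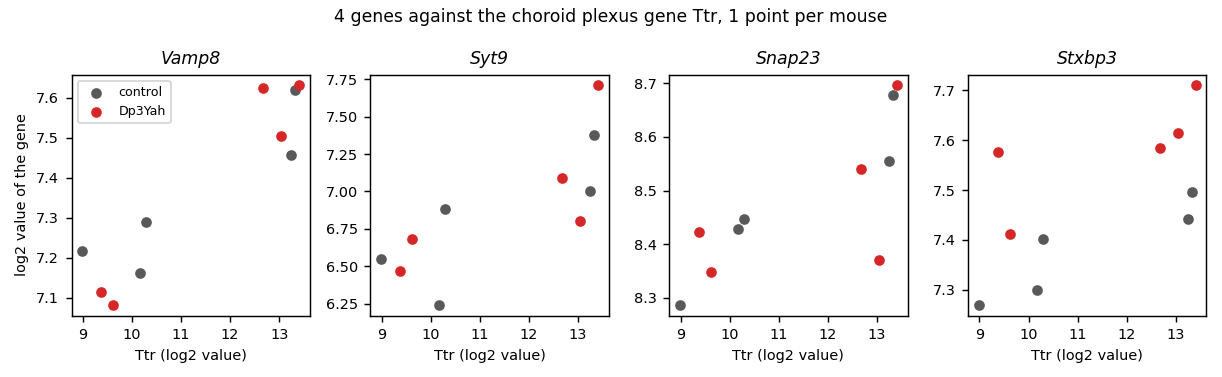
Log2 value of Vamp8, Syt9, Snap23 and Stxbp3 (vertical axes) against that of Ttr (horizontal axis), 1 point per mouse, with 5 control and 5 Dp3Yah mice. The mice form a low-Ttr cluster (8.99 to 10.29) and a high-Ttr cluster (12.68 to 13.40), each with mice of both genotypes. Vamp8 is higher in every mouse of the high cluster.

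Further genes of the pathway were read in the same way. Of 82 further genes listed as SNARE partners, active zone and Rab3 cycle proteins, vesicle membrane proteins, and clathrin coat and accessory proteins, 79 were measured, 45 higher and 34 lower, with a median of 0.01. By limma 0 were called and 3 had an unadjusted p under 0.05, beside 5.08% of all genes, while the rank test put 5 past its threshold, beside 4.59% of all genes. Both counts were near the background. Stxbp6 (amisyn), which binds syntaxins and is also a dentate granule cell marker, read 9.17, 8.97, 9.07, 9.15 and 9.26 in Dp3Yah mice and 9.34, 9.29, 9.42, 9.46 and 9.21 in controls. It was lower by 0.22 (SE 0.062, limma adjusted p = 0.922), with only control replicate 5 inside the Dp3Yah range. Cadps2 (CAPS2), a priming factor of dense-core vesicles, was at 0.19, and Bet1, a SNARE of transport from the endoplasmic reticulum to the Golgi, at 0.16. Doc2b, a high-affinity calcium sensor of spontaneous release, was at -0.26 (95% interval -0.55 to 0.02), and at -0.16 without Dp3Yah replicate 5. Fcho2, an early organiser of clathrin pits, was at 0.13, and Napa (alpha-SNAP), the cofactor of Nsf, at -0.07.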

How the data were processed

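Hippocampal RNA of 10 mice was measured on Affymetrix Mouse Gene ST arrays, 1 mouse per array. The authors deposited 1 log2 value for each probe set. RMA, limma and mm10 are named by the submitters' processing notes, with versions not given in the sources used here. RMA fits all arrays together and compresses small changes of dim probes.

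Of 35556 probe sets, 21789 had 1 gene, 1621 several (not used) and 12146 were unnamed here. Each of 19939 genes took its probe set with the highest mean, a choice open for 3 members (Unc13a, Unc13c and Stxbp4). Coordinates came from RefSeq GRCm38.p6. Array medians ran from 5.64 to 5.71, no 2 arrays were identical, and the number of arrays limits the precision.

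Groups were compared in R 4.3.3 with limma 3.58.1 (no covariate, two-sided, Benjamini-Hochberg over all genes, threshold 0.05), tested on simulated data. The study's rank test (FCROS: 25 pairs of arrays, 0.25 trimmed at each end, f under 0.025 or over 0.975) was rewritten as an alternative. Its f ranks a gene against all other genes and carries no error estimate from replicates, so passing it is not evidence of a difference by itself. Because limma suits log2 values, it gave the main result. Replicate numbers were not used as pairs in the main test. Same-numbered mice correlated from -0.36 to 0.32, with both signs, which cannot settle whether the numbers pair littermates.

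Members and lists were chosen with earlier results of these data known. Named members (23) were a fixed set, the 5 smallest unadjusted p in each direction, the smallest p of each role, and any whose groups did not overlap. The 10 added after values were seen are Vamp8, Syt9, Syt2, Vamp1, Cplx1, Cplx3, Unc13c, Syt10, Syt13 and Stx19. The motif search and the choroid plexus covariate were also added then. Protein sequences were not used here.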

Additional observations from a re-analysis of the deposited data

Results flagged for a closer look

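Of 78 groups of 5 mice, 6 held 1 mouse far from the others by Dixon's test, which chance gives in about 1 of 20 groups. Of the 6, 4 were in genes named after their values were seen (Cplx1, Cplx3 and Unc13c in both genotypes), so the count cannot be read against that share. Dp3Yah replicate 2 was the low mouse for Cplx1, at 10.56 with the other Dp3Yah mice at 10.95 to 11.03, and for Unc13c, at 7.27 with the others at 7.77 to 7.95. In controls, Unc13c was low in replicate 1, at 7.46 with the others at 7.78 to 7.86. Cplx3 was high in control replicate 2, at 6.21 with the others at 5.60 to 5.71. Snap91 was high in control replicate 1, at 11.18 with the others at 11.05 or below. Syp was low in control replicate 5, at 11.94 with the others at 11.97 to 11.98.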

How the results depend on the processing

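No member passed correction under any of 19 alternative limma settings, where the lowest adjusted p of a member was 0.707, and Stxbp3 and Vamp7 kept an unadjusted p under 0.05 in each. The rank test put 6 members, 5 other pathway genes and 915 of all genes past its threshold. Over all genes limma called 3, which became 1 with all probe sets tested, 5 with array weights, 6 with a trended robust variance and 1 to 4 when 1 mouse was left out. The count of members whose groups did not overlap was 0 after median centring or a second quantile normalisation, and 1 to 4 when 1 mouse was left out. Fewer mice make such a gap easier, and the share over all genes is not given for these settings, so these counts are not read as a result. The count at an unadjusted p under 0.05 was 3 to 8 when 1 mouse was left out, while the share of all genes ran from 3.23% to 6.79%. It was 3 without control replicate 4 or 5, beside 3.23% and 3.93% of all genes, and 8 without control replicate 1, beside 5.36%. The median change of the members was -0.02 to 0.01 when 1 mouse was left out. With the replicate block 7 members had an unadjusted p under 0.05 (Vamp1 added), beside 5.05% of all genes, and 0 were called. Of 10 mice, 4 correlated best with their own number. Signs near 0 turned: Nsf to 0.0050 with array weights, 0.0072 with median centring and 0.00043 with quantile normalisation, Itsn2 to 0.010 and Stx1a to 0.0042 with array weights, Snap23 to 0.0071 with median centring, and Snap25 to -0.0094, Syp to -0.00096 and Syt1 to -0.0076 with quantile normalisation. When 1 mouse was left out, signs also turned within -0.037 to 0.0054 for Dnm1, -0.043 to 0.016 for Itsn2, -0.021 to 0.024 for Nsf, -0.059 to 0.046 for Snap23, -0.015 to 0.041 for Snap25, -0.039 to 0.016 for Snap91, -0.13 to 0.066 for Stx1a, -0.052 to 0.019 for Syn1, -0.00094 to 0.034 for Syp, -0.0081 to 0.028 for Syt1, -0.018 to 0.12 for Vamp8, -0.050 to 0.28 for Syt9, -0.064 to 0.14 for Cplx3, -0.11 to 0.075 for Unc13c and -0.00089 to 0.033 for Syt13. The cause was not tested.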
